A study of Mus musculus with 35 samples.

Results

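Limb and mandibular prominence, 2 outgrowths of the mouse embryo that are built from different mesenchyme, were compared in 12 of the 35 bulk RNA-seq libraries of a survey of embryonic tissues. The members were chosen by their titles alone: 6 libraries named CD1 Limb and 6 named CD1 MNP, all of wild-type CD1 embryos at embryonic day 11.5. The other libraries came from the same strain, genotype and age: 6 of the frontonasal prominence (FNP), 5 of the maxillary prominence (MXP), 6 of dorsal brain (dB) and 6 of ventral brain (vB). The survey asked how the expression of cilium genes differs between tissues, and the pair compared here tests 2 non-neural outgrowths against each other. Each library was a pool of tissue dissected from several embryos and held a mixture of cell types, so that fewer cells of a type and less RNA per cell cannot be told apart. The labels do not say whether forelimbs, hindlimbs or both were taken. The submitters state that replicates are biological, and the labels do not give the number or stage of the embryos in a pool.

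The limb bud grows from lateral plate mesoderm under an ectodermal ridge that secretes FGF ligands, while the mandibular prominence is the part of the first pharyngeal arch that will form the lower jaw and is filled mainly by cranial neural crest around a core of arch mesoderm. The neural crest of the first arch is known as a Hox-free territory, in which nested Dlx homeobox genes and Hand factors set the proximal and distal parts of the jaw. In the limb, HoxA and HoxD genes of the 5′ part of each cluster mark the regions of the arm, forearm and hand, and Shh from the posterior margin, FGF from the ridge and WNT from the dorsal ectoderm pattern the axes. Many regulators are used by both outgrowths, among them Prrx1, Twist1, Msx1, Hand2, Pitx1 and Gli3.

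The deposited values are FPKM, fragments scaled by transcript length and by library size, estimated per transcript by Cufflinks. They were summed per gene symbol, and all levels below are in FPKM. Differences are limb minus MNP of log2(FPKM + 1), on which scale the difference of a gene with few FPKM is smaller than its ratio of FPKM. The linear models of limma (trend and robust) gave each of the 6 tissues its own mean over all 35 libraries, for 13934 genes whose average reached 1 FPKM in at least 1 tissue. Called genes had a fold change of 2 or more and an adjusted p (Benjamini-Hochberg) below 0.05, and every adjusted p below is from this limma fit.

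The 12 libraries had 11742 to 12534 genes at 1 FPKM or more, with the lowest number in limb replicate 4. Limb replicate 4 also stood apart in level: it held the lowest limb value for 5747 of the 13934 tested genes (41.2%) and for 184 of the 378 called genes (48.7%). MNP replicate 4, from the same sequencing run, had the fewest genes of the MNP libraries (12129). It held the lowest MNP value for 22.2% of the tested and 38.1% of the called genes. No other limb or MNP library came from that run, and its part in these levels was not tested. Counts from a fit with the sequencing run as a term are given at the end. Transcripts under 200 bases held 26.6% and 39.2% of all FPKM in the MNP and limb libraries numbered 1, against 0.93% to 9.65% in the other 10. Across the tested genes, which are not independent of each other, Pearson's r of pairs of libraries was 0.951 to 0.987 within limb, 0.961 to 0.989 within MNP and 0.919 to 0.972 between the tissues, so that the ranges overlapped. No read counts were used, and the depth is known only through a coverage column in which 1 FPKM went with 3.00 to 5.17 units of coverage.

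Limb and MNP differed in few genes. Of the 13934 tested genes, 170 were higher in limb (1.22%) and 208 were higher in MNP (1.49%), which is 2.71% in all. Among the 378 called genes, 314 had no overlap between the 6 limb and the 6 MNP libraries. Of all tested genes 6.86% had no overlap, 2.99% with limb above and 3.88% with MNP above, and at any fold 7.86% passed the adjusted p, 3.58% higher in limb and 4.28% higher in MNP. The differences reached a fold of at least 4 in 55 genes higher in limb and 47 higher in MNP, and a fold of at least 8 in 27 and 15. Of the 170 genes higher in limb, 89 had an MNP mean under 1 FPKM, and of the 208 genes higher in MNP, 80 had a limb mean under 1 FPKM. In all, 13 genes higher in limb were listed at 0 in all 6 MNP libraries, and 1 gene higher in MNP, Nkx2-5, was listed at 0 in all 6 limb libraries. The sequencing runs of replicates 1 to 3 were not those of replicates 4 to 6. Replicates 1 to 3 alone gave 166 genes higher in limb and 183 higher in MNP, and replicates 4 to 6 alone gave 115 and 104. Without limb replicate 4 the counts were 184 and 181.

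**Figure D1:**
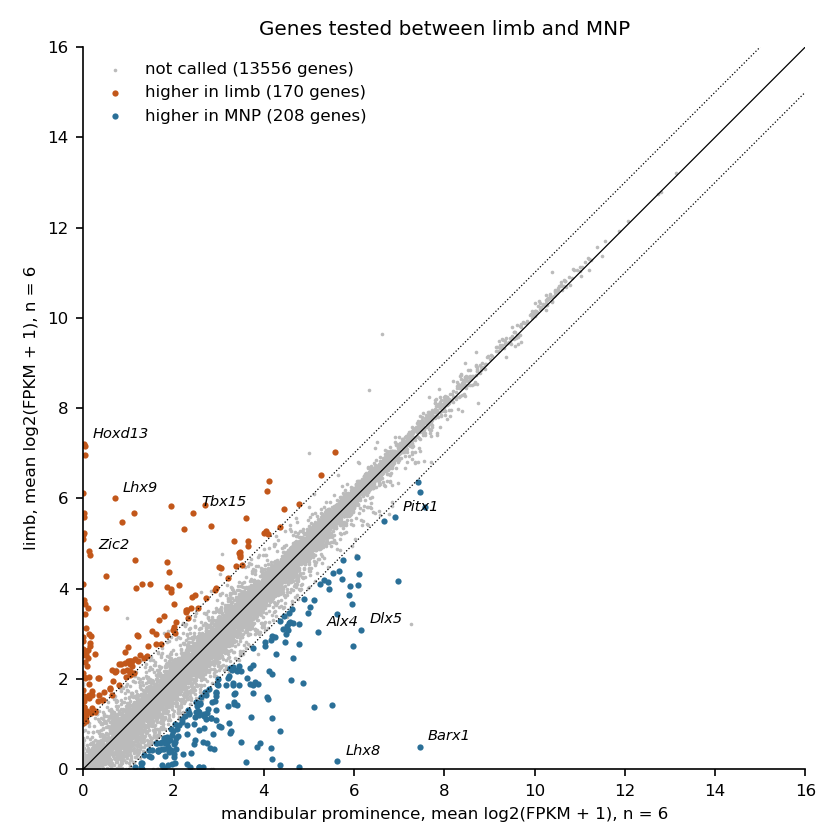
Mean log2(FPKM + 1) of 6 MNP libraries (x axis) and 6 limb libraries (y axis) for the 13934 tested genes, with equality as a solid line and a fold change of 2 as dotted lines. The 170 genes higher in limb lie above the upper dotted line, many of them at an MNP level near 0, and the 208 genes higher in MNP lie below the lower one, with Barx1 farthest out.

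Hoxd13 and Hoxa13, factors of the future hand and foot, were near or at 0 FPKM in MNP, and Barx1 and Lhx8, homeobox factors of the jaw and tooth mesenchyme, were below 1 FPKM in limb. The stretch of 250 bases before the RefSeq start of each of these 4 genes is shown here for that reason. The sequences are from RefSeq on GRCm38.p6, written 5′ to 3′ on the strand of the gene, at chr2:74667975-74668224 (plus strand) for Hoxd13, chr6:52260881-52261130 (minus strand) for Hoxa13, chr13:48662786-48663035 (plus strand) for Barx1 and chr3:154330561-154330810 (minus strand) for Lhx8. Capitals mark 4 motifs on either strand, the TATA box letters TATAAA, the homeodomain core letters TAATTA, the CCAAT box letters CCAAT and the GC box letters GGGCGG, and neighbouring or overlapping matches run together. The letters TATAAA of Hoxd13 were matched on both strands at 1 place.
Hoxd13: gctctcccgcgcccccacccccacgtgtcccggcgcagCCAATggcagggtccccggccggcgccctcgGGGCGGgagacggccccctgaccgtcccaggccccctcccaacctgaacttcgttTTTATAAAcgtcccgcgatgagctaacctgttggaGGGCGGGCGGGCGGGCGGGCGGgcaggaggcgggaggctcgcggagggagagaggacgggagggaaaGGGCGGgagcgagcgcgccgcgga
Hoxa13: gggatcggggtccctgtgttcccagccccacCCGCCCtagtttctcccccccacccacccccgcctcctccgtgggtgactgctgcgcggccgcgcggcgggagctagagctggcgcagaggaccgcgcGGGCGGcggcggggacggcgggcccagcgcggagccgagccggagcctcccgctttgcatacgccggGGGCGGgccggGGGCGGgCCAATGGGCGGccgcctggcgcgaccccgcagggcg
Barx1: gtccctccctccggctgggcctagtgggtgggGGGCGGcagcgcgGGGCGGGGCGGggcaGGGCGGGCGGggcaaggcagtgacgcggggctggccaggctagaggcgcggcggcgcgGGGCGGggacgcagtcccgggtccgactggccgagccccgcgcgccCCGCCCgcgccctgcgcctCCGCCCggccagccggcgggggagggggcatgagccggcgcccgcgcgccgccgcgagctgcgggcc
Lhx8: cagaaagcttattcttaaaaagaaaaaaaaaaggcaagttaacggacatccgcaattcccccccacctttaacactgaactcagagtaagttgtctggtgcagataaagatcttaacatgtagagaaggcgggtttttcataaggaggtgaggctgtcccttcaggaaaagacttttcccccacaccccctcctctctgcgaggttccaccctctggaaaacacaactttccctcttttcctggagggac
The first 3 stretches were rich in G and C (74.4%, 80.0% and 85.6%) and held 31, 35 and 40 CG pairs, whereas that of Lhx8 had 46.0% G and C, 4 CG pairs and none of the 4 motifs. The Lhx8 stretch lies between the starts of Lhx8 and of a non-coding neighbour, AI606473, that is described below. Over the 32851 RefSeq promoters of the table, the same windows held TATAAA in 12.4%, TAATTA in 4.84%, CCAAT in 33.8% and GGGCGG in 32.7%, with a median of 6 CG pairs. Promoters were matched for 238 called genes. Those of genes higher in limb (128 promoters of 104 genes) held the motifs in 18.0%, 7.03%, 31.2% and 53.9%, and those of genes higher in MNP (184 promoters of 134 genes) in 13.0%, 3.8%, 29.9% and 52.2%, with medians of 13 and 11 CG pairs. Both sets of called genes thus had more GGGCGG and CG pairs than the whole table, which also holds promoters of genes that were not tested, and the match of a motif is a description of letters only.

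Hox genes were high in limb and at or near 0 in MNP. Of the 39 Hox genes 32 passed the filter on low values, 30 of these were called higher in limb and 0 higher in MNP, against 1.22% and 1.49% of all tested genes. Since most passed the filter through their limb level, the count describes the clusters rather than a sample of them. The FPKM of all 39 summed to between 497.5 and 832.9 in the limb libraries and to between 2.72 and 8.75 in the MNP libraries. Limb and MNP therefore did not overlap in summed Hox level.

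HoxA and HoxD genes of the 5′ parts of the clusters had the highest levels. Hoxd13, chr2:74668310-74671598 (GRCm38, mm10), ranged in limb from 52.6 to 262 FPKM with a median of 169, and was listed at 0 in 4 MNP libraries and at most at 0.0467 in the others. The difference was 7.18 on the log2 scale (SE 0.21, adjusted p = 7.86e-24). Hoxa10, a gene of the upper and middle limb segments, ranged only from 110 to 141 FPKM in limb (mean 124 ± 13.4, SD, n = 6), against at most 0.0858 in MNP (difference 6.93, adjusted p = 5.3e-40). Hoxa13 stood at 10.1 to 59.5 FPKM in limb, median 45.7, and was listed at 0 in all 6 MNP libraries. The lowest limb value of Hoxd13 and of Hoxa13 was that of replicate 4, and the 3 highest values of both were those of replicates 2, 3 and 6.

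The neighbours in the HoxD cluster followed with 71.2 ± 20.8 FPKM (SD, n = 6) for Hoxd11, 53.9 ± 19 for Hoxd12, 47.1 ± 5.11 for Hoxd10 and 28.4 ± 7.49 for Hoxd9. Further towards the 3′ end the levels were lower, with 11.2 ± 3.28 for Hoxd8, 5.2 ± 2.62 for Hoxd4 and 2.24 ± 0.916 for Hoxd3. Hoxd1, the last gene at that end, was under the filter, at a mean of 0.0964 FPKM in limb and 0.467 in MNP. In HoxA, limb levels were 36.8 ± 6.1 FPKM for Hoxa11, 33.6 ± 4.35 for Hoxa9, 11.7 ± 1.58 for Hoxa5 and 4.98 ± 1.3 for Hoxa3. FPKM is scaled by transcript length, so these levels can be set side by side, and in both clusters the highest lay among groups 9 to 13.

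HoxC and HoxB genes were lower in limb. Hoxc10, a gene associated with the hindlimb, had the highest level of the HoxC cluster with 11.2 to 24.8 FPKM in limb, median 15.9, and was listed at 0 in all MNP libraries. Hoxc11, also known from the hindlimb, stood at 2.43 to 10.1 FPKM in limb, and Hoxc6 at 2.24 to 9.75. In HoxB no gene had a limb mean above 3.41 FPKM, that of Hoxb2, whose MNP mean was 0.998. The call of Hoxb2 (difference 1.08, adjusted p = 0.000101) was lost in 4 of the 12 fits that each left out 1 library, with a lowest difference of 0.89 without limb replicate 4, and that of Hoxc12 was lost without limb replicate 2 or 3. Hoxa2, which is known to be expressed by the crest of the second arch, had the highest MNP level of all Hox genes and was not called, at 1.52 to 3.27 FPKM in limb and 0.279 to 3.00 in MNP (difference 0.31, 95% interval -0.02 to 0.64). Hoxb6 was at a mean of 1.08 FPKM in limb and listed at 0 in MNP, just under the fold required.

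**Figure D2:**
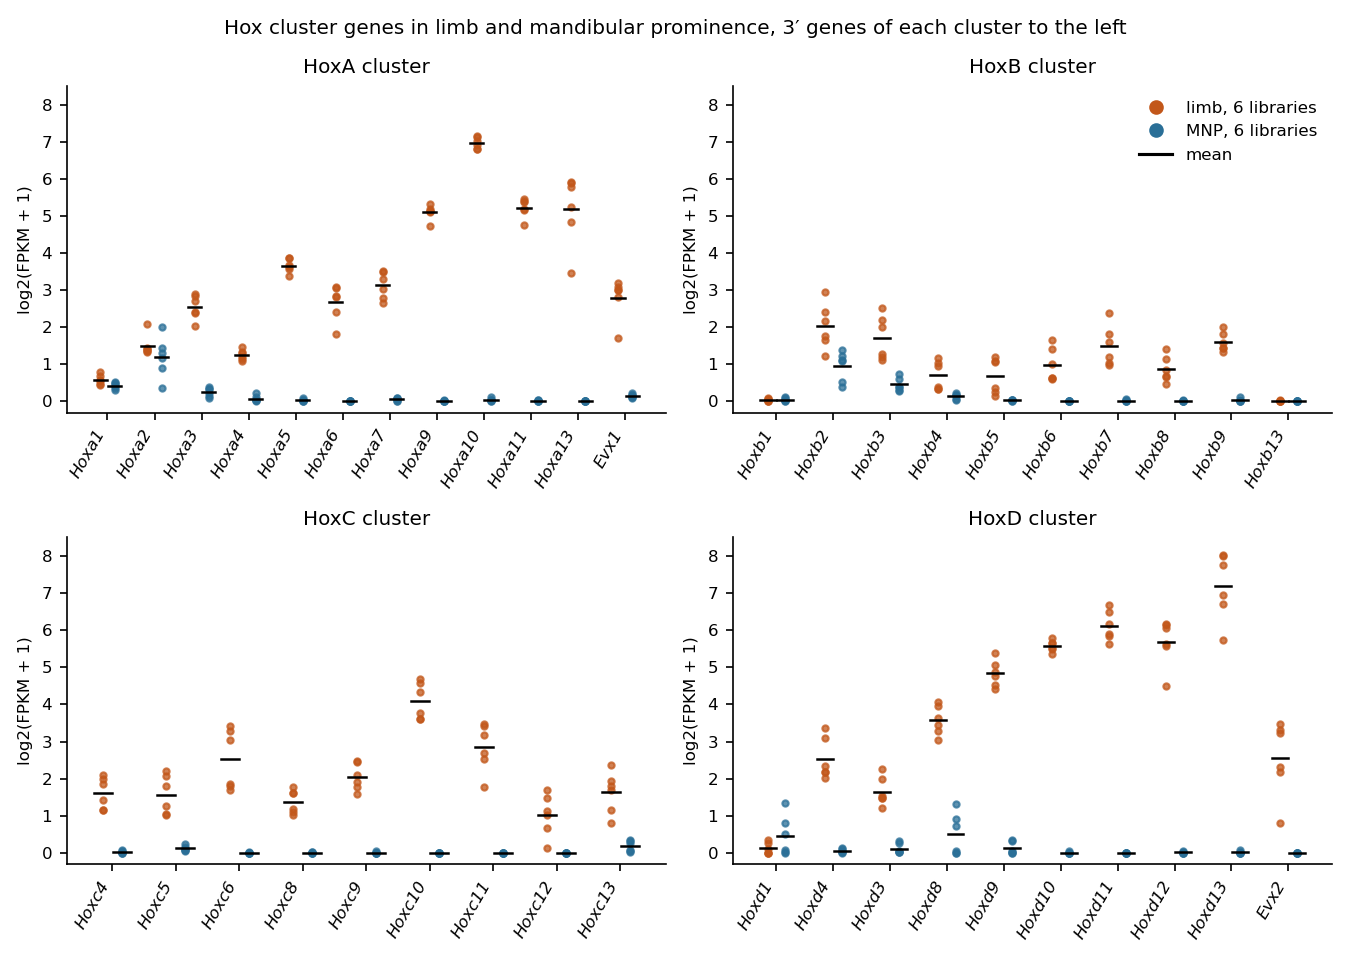
Level of each Hox gene, and of the Evx genes at the 5′ ends, as log2(FPKM + 1) in the 6 limb and the 6 MNP libraries, in the order along each cluster with bars at the mean. Limb levels are highest at Hoxa10 and Hoxd13 and MNP levels are near 0 outside Hoxa2, Hoxb2, Hoxb3 and, in some libraries, Hoxd1 and Hoxd8.

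In HoxA the calls other than that of Hoxa3, and in HoxC and HoxD all calls, lay in 1 unbroken run of tested genes along the chromosome. A run of 14 tested genes in a row was called higher in limb at chr6:52175217-52318378, from 2700086A05Rik to Evx1, and runs of 10 were called at chr15:102921131-103036852 (HoxC) and chr2:74655616-74748271 (HoxD). In HoxB the called genes had uncalled ones between them, Hoxb6 among these. The windows of the 4 clusters held 61 entries with 44 tested, of which 40 were higher in limb and 0 in MNP. Non-coding transcripts were among them. Hoxa11as, antisense to Hoxa11, had the second-highest limb level of all called genes that were higher in limb, 62.4 to 210 FPKM with a median of 169, and at most 0.114 in MNP (difference 7.11, adjusted p = 2.03e-27). It overlaps Hoxa11 by 686 bases, and since the sources used here do not state that strand was kept, reads of the overlap cannot be told apart. Mira, a non-coding transcript beside Hoxa7, was at 8.18 to 13.9 FPKM in limb, and Hotair, in the HoxC cluster, was at 0.923 to 2.2 FPKM in limb and listed at 0 in MNP.

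Besides the Hox genes themselves, 36 factors of the limb field and its axes were tested. Of these, 13 were higher in limb and 9 higher in MNP, against 1.22% and 1.49% of all tested genes. The median difference was 0.02 beside -0.01 over all tested genes. Evx2 of the HoxD window (0.745 to 10.1 FPKM in limb, listed at 0 in MNP) was among the 13. The list was chosen with earlier results of these data known, so the counts describe its members rather than a sample of genes. The LIM homeobox genes Lhx9 and Lhx2, which relay ridge signals to the mesenchyme, differed most. Lhx9 ranged from 51 to 71.6 FPKM in limb, median 67.8, and from 0.0863 to 1.48 in MNP, median 0.599 (difference 5.31, SE 0.29, adjusted p = 4.7e-16). Lhx2 ranged from 36.7 to 57.1 in limb and from 0.288 to 1.84 in MNP (difference 4.61, adjusted p = 1.18e-12). The lowest limb library was far above the highest MNP library for both.

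Tbx5, the T-box factor of the forelimb field, and Tbx4, that of the hindlimb field, were both high in every limb library. Tbx5 was at 12.8 to 24.5 FPKM in limb (mean 18.7 ± 4.31, SD, n = 6) and at 0.0155 to 1.46 in MNP (difference 3.76, adjusted p = 1.3e-20). Tbx4 was at 6.7 to 28.6 FPKM in limb (mean 21.3 ± 7.64) and at 1.55 to 4.41 in MNP (difference 2.46, adjusted p = 5.98e-11). In limb replicate 4 the level of Tbx5 was 12.8 and that of Tbx4 6.7, the lowest of both genes, and in the other 5 libraries Tbx4 stood at 21.5 to 28.6. Pitx1, the hindlimb selector that the jaw shares, was on the contrary higher in MNP, at 98.7 to 158 FPKM against 16.9 to 82.2 in limb, with no overlap (difference -1.31, adjusted p = 0.0179). That call was lost without limb replicate 4 (-1.03) and without MNP replicate 2 (-1.23).

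Dorsal, ventral and mesenchymal regulators of the limb were also higher there. Lmx1b, which marks dorsal limb mesenchyme, was at 16.5 to 24.8 FPKM in 5 limb libraries and at 3.7 in replicate 4, against 1.16 to 1.92 in MNP (difference 2.79, adjusted p = 2.08e-08). En1, the factor of the ventral limb ectoderm, was low, at 1.37 to 3.61 FPKM in limb and at most 0.309 in MNP (difference 1.74, adjusted p = 0.00126). The difference was 3.48 for Sall1, 3.25 for Tbx15, 2.71 for Tbx18, 2.32 for Sall3 and 2.07 for Shox2, all with no overlap between the tissues. Shox2, which is needed in the upper limb and in the palate, was well expressed in MNP too, at 9.82 to 28 FPKM against 46.3 to 113 in limb. Zic2 was at 13 to 34.8 FPKM in limb and at most 0.186 in MNP (difference 4.60, adjusted p = 1.91e-13). Pmaip1, a gene of the BH3-only group that promotes apoptosis, was at 35.4 to 66.1 FPKM in limb and 0.816 to 1.52 in MNP (difference 4.55, adjusted p = 4.43e-20).

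The 9 limb field factors higher in MNP were Alx4, Tbx2, Plagl1, Meis2, Irx3, Irx5, Pkdcc, Pitx1 and Tbx3. Alx4, known for its part in both limb polarity and skull development, was at 28 to 47.3 FPKM in MNP and 3.8 to 12.7 in limb (difference -2.17, adjusted p = 0.00017). Meis2, a factor of the proximal limb, was at 22.8 to 38.6 FPKM in MNP and 5.65 to 20 in limb (difference -1.53, adjusted p = 0.000511), with no overlap in either gene. Its relative Meis1 was at 11.9 to 17.7 FPKM in MNP and 4 to 15.6 in limb and was not called (difference -0.79, adjusted p = 0.0819). Tbx2 differed by -1.86 and Tbx3 by -1.09. Among these calls, that of Irx3 (-1.51) was lost without limb replicate 2 (-1.27) or 3 (-1.26), that of Tbx3 was lost without limb replicate 2 (-0.99) or MNP replicate 2 (-0.97), and that of Pkdcc (-1.36) was lost in 8 of the 12 fits that left out 1 library, with the smallest difference without limb replicate 3 (-1.02). The call of Pkdcc was also lost with the 12 limb and MNP libraries alone (adjusted p = 0.137).

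**Figure D3:**
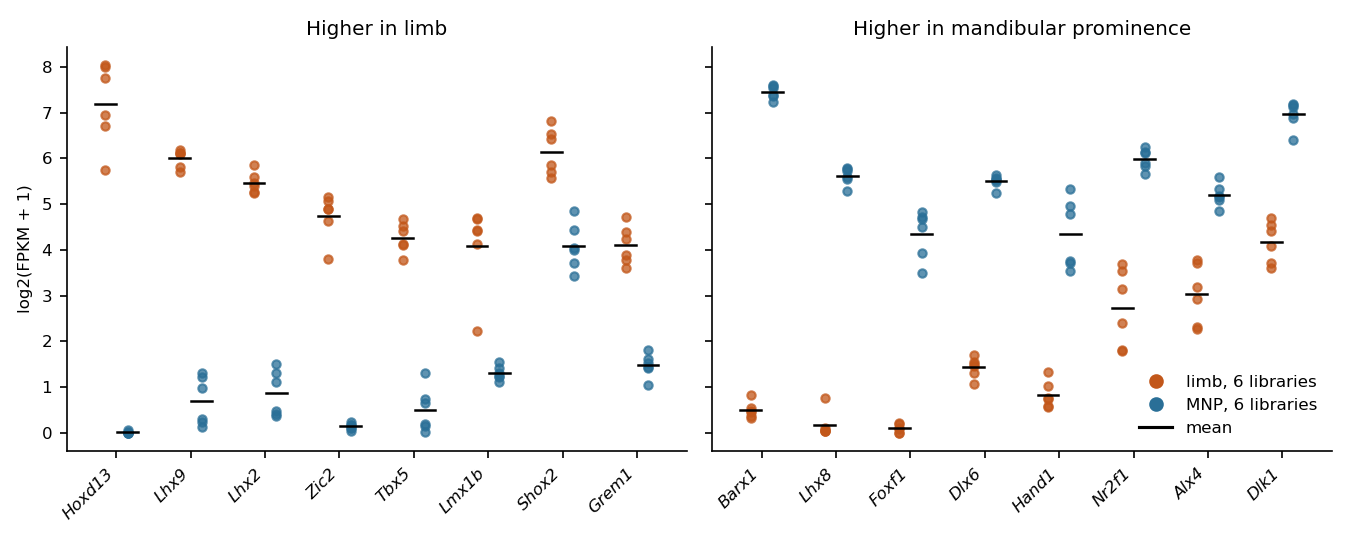
Level as log2(FPKM + 1) in the 6 limb and the 6 MNP libraries for 8 genes higher in limb and 8 genes higher in MNP, with bars at the mean. The tissues do not overlap in any of the 16 genes, and MNP levels of Hoxd13 and Zic2 and limb levels of Lhx8 and Foxf1 lie near 0.

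Of 21 tested genes of the limb signalling centres, 7 were higher in limb, 1 was higher in MNP and 13 were not called. Grem1, the BMP antagonist that links Shh to the ridge, ranged from 11.1 to 25.2 FPKM in limb and from 1.07 to 2.53 in MNP (difference 2.62, adjusted p = 2.2e-12). Sp8, a zinc finger factor of the ridge ectoderm, was at 2.82 to 4.88 in limb and at most 0.179 in MNP (difference 2.20, adjusted p = 8.22e-11). Wnt7a, the dorsal ectoderm signal, was at 2.5 to 4.82 in limb and 0.433 to 1.23 in MNP (difference 1.31, adjusted p = 1.91e-06). None of these 3 overlapped between the tissues.

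Fgf8, the ligand of the ridge and also of the oral ectoderm of the first arch, overlapped between the tissues at the ends of the ranges, with 17.7 to 57.4 FPKM in limb, median 34.7, and 5.07 to 18.5 in MNP, median 9.63 (difference 1.72, adjusted p = 0.00322). Genes of FGF feedback were higher in limb too: Dusp6 was at 64.6 to 128 FPKM in limb and 27.2 to 48.8 in MNP (difference 1.23), and Spry4 was at 7.69 to 13.6 and 3.39 to 5.03 (difference 1.24), with no overlap. Cyp26b1, which degrades retinoic acid in the distal limb, was at 21 to 65.7 FPKM in limb and 4.7 to 25.9 in MNP (difference 1.95, adjusted p = 0.00106). Rspo2, a WNT agonist that limb ridge and jaw both need, was the 1 gene of this list higher in MNP, at 19.6 to 28.9 FPKM against 2.87 to 6.47 in limb (difference -2.18, adjusted p = 6.1e-09). Shh itself was not called, at 1.68 to 7.57 FPKM in limb and 0.95 to 5.81 in MNP (difference 0.44, adjusted p = 0.668).

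Mandibular arch and facial mesenchyme factors made up the largest block on the other side. Of 43 tested members 31 were higher in MNP and 0 higher in limb, against 1.49% and 1.22% of all tested genes, with a median difference of -1.68. Members under 1 FPKM in limb, Barx1 and Lhx6 among them, passed the filter on low values through MNP or another tissue. The list was also chosen with earlier results of these data known, so the count describes its members rather than a sample of genes. Their summed FPKM was 149.1 to 256.4 in limb and 835.5 to 1075 in MNP. Barx1, chr13:48663036-48666507, was the gene with the largest difference in this direction and was at 149 to 194 FPKM in MNP, median 176, and at 0.251 to 0.767 in limb (difference -6.96, SE 0.32, adjusted p = 4.73e-18). Lhx8 was at 38 to 54.7 in MNP, and at 0.0241 to 0.0744 in 5 limb libraries and 0.702 in limb replicate 1 (difference -5.45, adjusted p = 7.15e-12). Lhx6, its partner gene in the oral mesenchyme, was at 12.7 to 22.6 in MNP and 0.21 to 0.913 in limb (difference -3.71, adjusted p = 2.47e-09).

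All tested Dlx genes were higher in MNP than in limb, namely Dlx1, Dlx2, Dlx3, Dlx4, Dlx5 and Dlx6, the family whose nested expression sets jaw identity. Dlx6 was at 36.9 to 49.2 FPKM in MNP and 1.1 to 2.25 in limb (difference -4.08, SE 0.36, adjusted p = 1.2e-10). Dlx5 was at 55.3 to 85.6 in MNP and 4.41 to 11.7 in limb (difference -3.06, adjusted p = 1.49e-07). The lowest MNP library was above the highest limb library in all 6 genes. Dlx1, Dlx3 and Dlx2 differed by -2.54, -2.08 and -2.02, and Dlx4, the lowest of the family at 3.25 FPKM in MNP, by -1.38.

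Forkhead genes formed a further group. Foxf1, a target of Hedgehog signalling in jaw mesenchyme, was at 10.3 to 27.6 FPKM in MNP and at most 0.155 in limb (difference -4.26, adjusted p = 6.92e-13). Foxd1 was at 5.93 to 31.8 in MNP and at most 0.687 in limb (difference -3.95), and Foxf2 at 7.21 to 18.9 and at most 0.783 (difference -3.35). Foxd2 and Foxc2 differed by -2.07 and -1.68, the latter without its call when limb replicate 4 (-1.55) or MNP replicate 5 (-1.55) was left out. Foxc1, the paralogue of Foxc2, was not called, at a mean of 7 FPKM in limb and 5.41 in MNP. Foxl2 was low, at a mean of 1.55 FPKM in MNP and 0.0986 in limb (difference -1.16).

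The Hand genes, which mark the distal jaw and the posterior limb, parted. Hand1 was at 10.6 to 39.2 FPKM in MNP and 0.469 to 1.52 in limb (difference -3.51, SE 0.25, adjusted p = 4.81e-13). Hand2 was at 72.7 to 106 in MNP and 32.9 to 113 in limb and was not called (difference -0.20, 95% interval -0.82 to 0.42). Nr2f1, an orphan nuclear receptor of the cranial crest, was at 49.6 to 74.8 FPKM in MNP and 2.46 to 11.8 in limb (difference -3.25, adjusted p = 7.63e-10). Alx1 differed by -3.05 and Gsc by -2.29. Nkx2-5 was at a mean of 1.73 FPKM in MNP and listed at 0 in limb. Six2 (-2.18) lost its call without limb replicate 4 (-1.79) or MNP replicate 2, and Pax9 (-1.33) and Sim2 (-1.01) each lost theirs in 5 of the 12 fits that left out 1 library, with smallest differences of -1.07 without limb replicate 4 and -0.89 without MNP replicate 2. Pax9 also lost its call with the 12 limb and MNP libraries alone (adjusted p = 0.105). Nr2f2 (-1.14) lost its call without limb replicate 4 (-0.97).

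Several regulators that the outgrowths share were not called, which does not mean that their levels were equal. Prrx1, a factor of limb and facial mesenchyme, was at 93.8 to 158 FPKM in limb and 138 to 256 in MNP (difference -0.41, 95% interval -0.97 to 0.16). Twist1 was lower in all 6 limb libraries, at 71.6 to 143 FPKM, than in the 6 MNP libraries, at 181 to 236, and its adjusted p was 0.427 (difference -0.90, 95% interval -1.95 to 0.15). This interval rests on a spread estimated over all 35 libraries, the brain libraries included, with an SE of 0.51. With the 12 limb and MNP libraries alone the SE of Twist1 was 0.15 and its adjusted p was 0.000968, at the same difference under the fold required. Msx1 (-0.74, adjusted p = 0.00173 with the 12 libraries alone), Msx2 (-0.11) and Gli3 (0.15) were not called either, and Pdgfra, which marks mesenchyme broadly, was at a mean of 43.5 ± 7.82 FPKM in limb and 44.4 ± 12 in MNP (SD, n = 6).

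Pairs of a regulator and a neighbouring transcript were called together in both directions. AI606473, a non-coding transcript that starts 260 bases from the start of Lhx8 on the other strand, was at 19.3 to 38.6 FPKM in MNP and at most 0.153 in limb (difference -4.74). The highest limb value of AI606473 and of Lhx8 both came from limb replicate 1. 1110050K14Rik, named Fendrr in RefSeq, lies 1441 bases from Foxf1 and differed by -2.50. Dlx1as overlaps Dlx1 by 3344 bases and was at 29.2 to 39.1 FPKM in MNP and 0.859 to 2.51 in limb (difference -3.74), and Dlx6as1 overlaps Dlx6 by 4637 bases and differed by -3.36. Beside Pou3f3, a POU factor that differed by -2.88, 2 non-coding transcripts differed by -2.13 (2610017I09Rik) and -1.84 (2900092D14Rik).

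On the limb side, C130021I20Rik lies 681 bases from Lmx1b and was at 38.1 to 68.7 FPKM in limb and 2.1 to 3.62 in MNP (difference 3.89). In limb replicate 4 it stood at 38.1, against 3.7 for Lmx1b. AK087181, 2871 bases from Tbx5, differed by 2.37, and AK006202, 26793 bases from it, was at a mean of 3.46 FPKM in limb and listed at 0 in MNP. Zic5 lies 9725 bases from Zic2 and differed by 2.55, and 2610035F20Rik, between them, was at a mean of 1.47 FPKM in limb and listed at 0 in MNP. Because the antisense pairs share sequence, their values are not independent where they overlap.

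Among the 20 genes of the Hedgehog pathway, which signals through the primary cilium, 18 were tested and 0 were called in either direction by limma, with all 35 or with the 12 libraries alone. Over all tested genes 2.71% were called, so that 0 calls among 18 genes does not set the pathway apart. At an unadjusted p under 0.05 there were 2, and 1 passed the adjusted p at a smaller fold (Boc, difference 0.81, adjusted p = 0.0389). Gas1 and Smo, a co-receptor and the signal transducer, had means of 89.7 ± 25.6 and 64.5 ± 17.4 FPKM in limb and 95 ± 13.7 and 68.1 ± 7.45 in MNP (SD, n = 6). Ptch1, receptor and target, was at 15.1 to 34.4 FPKM in limb and 25.4 to 47.7 in MNP (difference -0.38, 95% interval -0.88 to 0.11), and Gli1, a target, differed by -0.45 (95% interval -1.02 to 0.13). For both, limb replicate 4 had the lowest limb value.

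FGF pathway genes were called in 5 of 26 cases higher in limb and in 2 higher in MNP. That is 26.9% called, beside 2.71% of all tested genes. This list and those below were chosen with earlier results of these data known, so their counts describe the members. Besides Fgf8, Dusp6 and Spry4 these were the ligand Fgf18 (1.30) and the feedback inhibitor Spry2 (1.00), of which Fgf18 lost its call with the 12 libraries alone (adjusted p = 0.0745) and Spry2 in 6 of the 12 fits that left out 1 library, down to 0.93 without limb replicate 2. The transmembrane FGF receptor partners Flrt2 (-1.67) and Flrt3 (-1.15) were higher in MNP. The receptors Fgfr1 (0.13) and Fgfr2 (-0.67) and the ETS targets Etv4 (0.70) and Etv5 (0.69) were under the fold required. Fgf10, the mesenchymal ligand of the limb, was at 6.51 to 8.99 FPKM in limb and 3.67 to 5.9 in MNP, with no overlap and a difference of 0.74 (adjusted p = 0.00449).

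Of 43 genes of BMP and TGF-beta signalling, 3 were higher in limb and 0 in MNP (6.98% called, beside 2.71% of all tested genes). The 3 were the antagonists Grem1 and Chrdl1 (difference 1.73, adjusted p = 3.43e-10) and the joint ligand Gdf5. Gdf5 was at 1.17 to 9.74 FPKM in limb and 0.815 to 1.6 in MNP (difference 1.01, adjusted p = 0.00258), and its call was lost in 6 of the 12 fits that left out 1 library, with the smallest difference (0.75) without limb replicate 6, and with the 12 libraries alone (adjusted p = 0.0747). Bmp2, Bmp4 and Bmp7 differed by 0.87, 0.73 and 0.83 and were not called.

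WNT genes were called 7 times in each direction among 52 tested, which is 26.9% beside 2.71% of all tested genes. Higher in limb were the ligands Wnt5a (1.09), Wnt11 (1.38) and Wnt7a, the agonists Rspo3 (1.18) and Rspo4 (1.70), the effector Tcf7 (1.36) and the inhibitor Wif1 (2.19). Higher in MNP were the agonists Rspo2 and Rspo1 (-1.21), the receptor Lgr5 (-1.16), the ligands Wnt9b (-1.70) and Wnt2b (-1.18) and the antagonists Dkk2 (-1.16) and Sfrp1 (-1.09). The R-spondins were thus split, 2 in each direction. The call of Wnt5a was lost in 6 of the 12 fits that left out 1 library, down to 0.93 without MNP replicate 4. That of Dkk2 was lost in 5, down to -1.05 without limb replicate 4, and those of Rspo3, Lgr5 and Sfrp1 in 1 each (0.99 without MNP replicate 4, -0.98 without MNP replicate 2 and -0.98 without limb replicate 2).

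In the retinoic acid pathway, 2 of 18 genes were higher in limb and 2 in MNP (22.2% called, beside 2.71% of all tested genes). Rarb, a receptor that is itself a target of retinoic acid, was at 6.77 to 16.4 FPKM in MNP and 1.11 to 6.96 in limb (difference -1.82). Besides Cyp26b1, the carrier Rbp4 was higher in limb (difference 1.46). Aldh1a2, the main synthetic enzyme, was not called (-0.75).

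Of 23 tested chondrogenic and osteogenic genes, Lect1 and Matn4 were higher in limb, Runx2 and Pth1r were higher in MNP and 19 were not called. The share called was 17.4%, beside 2.71% of all tested genes. Runx2, the osteoblast selector, was at 1.4 to 17.8 FPKM in MNP, median 6.4, and 0.799 to 1.7 in limb (difference -1.62, adjusted p = 0.0122), overlapping, and its call was lost without MNP replicate 2 (-1.31). Sox9, the chondrocyte selector, was at 14.5 to 53 FPKM in limb and 8.41 to 23.4 in MNP (difference 0.88, adjusted p = 0.147), and Col2a1 at 20.1 to 110 and 25.8 to 85.4 (difference -0.37). Matn4 (1.29) lost its call in 10 of the 12 fits that left out 1 library, down to 0.90 without limb replicate 6, and with the 12 libraries alone (adjusted p = 0.207). Of 12 joint and tendon genes Scx and Gdf5 were higher in limb and Tnc and Osr1 (-1.37) in MNP, 33.3% of the list. Scx, the tendon progenitor factor, was at 27.8 to 46.9 FPKM in limb and 13.8 to 18.7 in MNP (difference 1.25, adjusted p = 0.000754).

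Matrix genes were called in 1 direction only, 7 of 36 higher in MNP and 0 in limb, with a median difference of -0.69 over the list. Over all tested genes 1.49% were higher in MNP and 1.22% in limb, and the median difference was -0.01. This list was also chosen with earlier results of these data known, so the count describes its members. Postn, a matricellular protein of periosteum and perichondrium, was at 12.4 to 46 FPKM in MNP and 1.36 to 5.05 in limb (difference -2.95, adjusted p = 1.1e-05). The others were Col6a1 (-1.59), Col6a2 (-1.46), Tnc (-1.46), Col6a3 (-1.31), Fbn1 (-1.26) and Col13a1 (-1.05). The calls of Col6a1 and Tnc were each lost without limb replicate 4 (-1.47 and -1.29), MNP replicate 2 (-1.32 and -1.25) or MNP replicate 6 (-1.39 and -1.28), and that of Col13a1 without limb replicate 2 (-0.99) or MNP replicate 6. That of Col6a2 was lost in 8 of the 12 fits that left out 1 library, down to -1.18 without MNP replicate 2, and with the 12 libraries alone (adjusted p = 0.0777). The large fibrillar collagen genes Col1a1 (-0.97, adjusted p = 0.488) and Col3a1 (-1.01, adjusted p = 0.415) were not called, though Col3a1 was called with the 12 libraries alone (adjusted p = 0.0161) and in the fit without vB (adjusted p = 0.00252).

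Muscle precursors of the limb migrate in from the somites, while the muscles of the jaw arise from arch mesoderm. Of 18 tested muscle progenitor genes, 2 were higher in limb, 3 were higher in MNP and 13 were not called, against 1.22% and 1.49% of all tested genes. Among the called genes, those named for these origins differed in direction. Lbx1, a factor of migrating limb precursors, was at 1.52 to 8.85 FPKM in limb and 0.131 to 1.39 in MNP (difference 1.54, adjusted p = 1.08e-06), and Met, the receptor on which that migration depends, at 3.56 to 4.84 and 0.992 to 1.49 (difference 1.29). Tcf21 (-1.09) and Tbx1 (-1.01), factors of arch muscle, and Des (-1.50) were higher in MNP. The myogenic factor Myod1 was at 2.72 to 13.7 FPKM in limb and 1.51 to 6.68 in MNP and was not called (difference 0.43). Tbx1 lost its call in 7 of the 12 fits that left out 1 library, down to -0.80 without limb replicate 4, and Tcf21 lost it without MNP replicate 5, just under the fold required.

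Markers of other cell types were compared as well, and their levels do not measure the share of each cell type in a pool. Of 24 surface ectoderm genes 2 were higher in MNP, Krt15 (2.77 ± 0.892 FPKM in limb and 14.6 ± 5.48 in MNP, SD, n = 6) and Tfap2c (difference -1.08), the latter not without limb replicate 3 (-0.98) or 6 (-0.96), and the summed level of the list was 182.4 to 303.2 FPKM in limb and 259 to 324.1 in MNP. Epcam, a general epithelial marker, was at 17.1 to 23.9 in limb and 13 to 24 in MNP (difference 0.19). Pharyngeal endoderm genes, 3 of 8, were higher in MNP: Foxe1 was at 2.05 to 11.3 FPKM there and at most 0.0985 in limb, and Foxa1 and Tbx1 were the others. Oral and dental genes were called higher in MNP in 7 cases and in limb in 1 among 14 tested, with Sox2 at 3.63 to 6.96 FPKM in MNP and 0.151 to 2.64 in limb, and Edar the exception (difference 1.18). Foxe1 and Tbx1 are counted in both the endoderm and the oral list, and Tbx1 in the muscle list too, so these counts are not separate. Tbx1 lost its call in 7 of the 12 fits that left out 1 library. The shares called were 8.33% of the ectoderm, 37.5% of the endoderm and 57.1% of the oral list. Over all tested genes 2.71% were called.

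Blood genes were summed to 10720 to 27080 FPKM in limb and 8816 to 24070 in MNP, with 0 of 17 called by limma and 0 at an unadjusted p under 0.05. With 2.71% of all tested genes called, 0 calls in a list this short, here and below, does not set the list apart. Of 18 endothelial genes only Ets2 (1.31) was called, and the defining genes Pecam1 and Cdh5 differed by -0.08 and -0.16. Glial and pigment cell genes had 0 of 11 called by limma, 6 at an unadjusted p under 0.05, and a summed level of 12.27 to 34.16 FPKM in limb and 23.35 to 35.53 in MNP. Among 15 neuron genes Dcx (1.28) and Stmn2 (1.09) were higher in limb and Nefl (-1.13) in MNP, of which Stmn2 lost its call without limb replicate 1 (0.98) and Nefl without MNP replicate 2 (-1.04) or 6, while Neurod1 and Syt4 were below 0.1 FPKM on average in both. The summed level of the neuron list lay the other way, at 29.94 to 57.16 FPKM in limb and 50.59 to 70.39 in MNP, and its median difference was -0.01. Of 14 neural crest genes only Nr2f1 and Tfap2c were called, both higher in MNP, with 7 at an unadjusted p under 0.05 and a median difference of -0.51. The summed level of the 14 genes was 324.6 to 567.8 FPKM in limb and 579.8 to 671.0 in MNP, with no overlap, and Sox10, the crest and glia factor, was at a mean of 0.741 FPKM in limb and 1.87 in MNP. How far these cell types take part in the differences above was not tested. Of 14 neural progenitor genes Lin28b (1.06) was higher in limb and Sox2 in MNP, and Lin28b lost its call in 8 of the 12 fits that left out 1 library. Of 42 axon guidance and ephrin genes Robo2 (1.42) and Nrp2 (1.22) were higher in limb and Epha3 (-1.71), Plxna2 (-1.42) and Sema5a (-1.21) in MNP, with Nrp2 losing its call in 5 of those fits and Sema5a in 1, without MNP replicate 2 (-1.03). By limma, 0 of 26 cell cycle genes, 8 immediate early genes, 5 sex-linked genes and 4 cardiac genes were called, with 3, 1, 0 and 1 at an unadjusted p under 0.05.

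**Figure D4:**
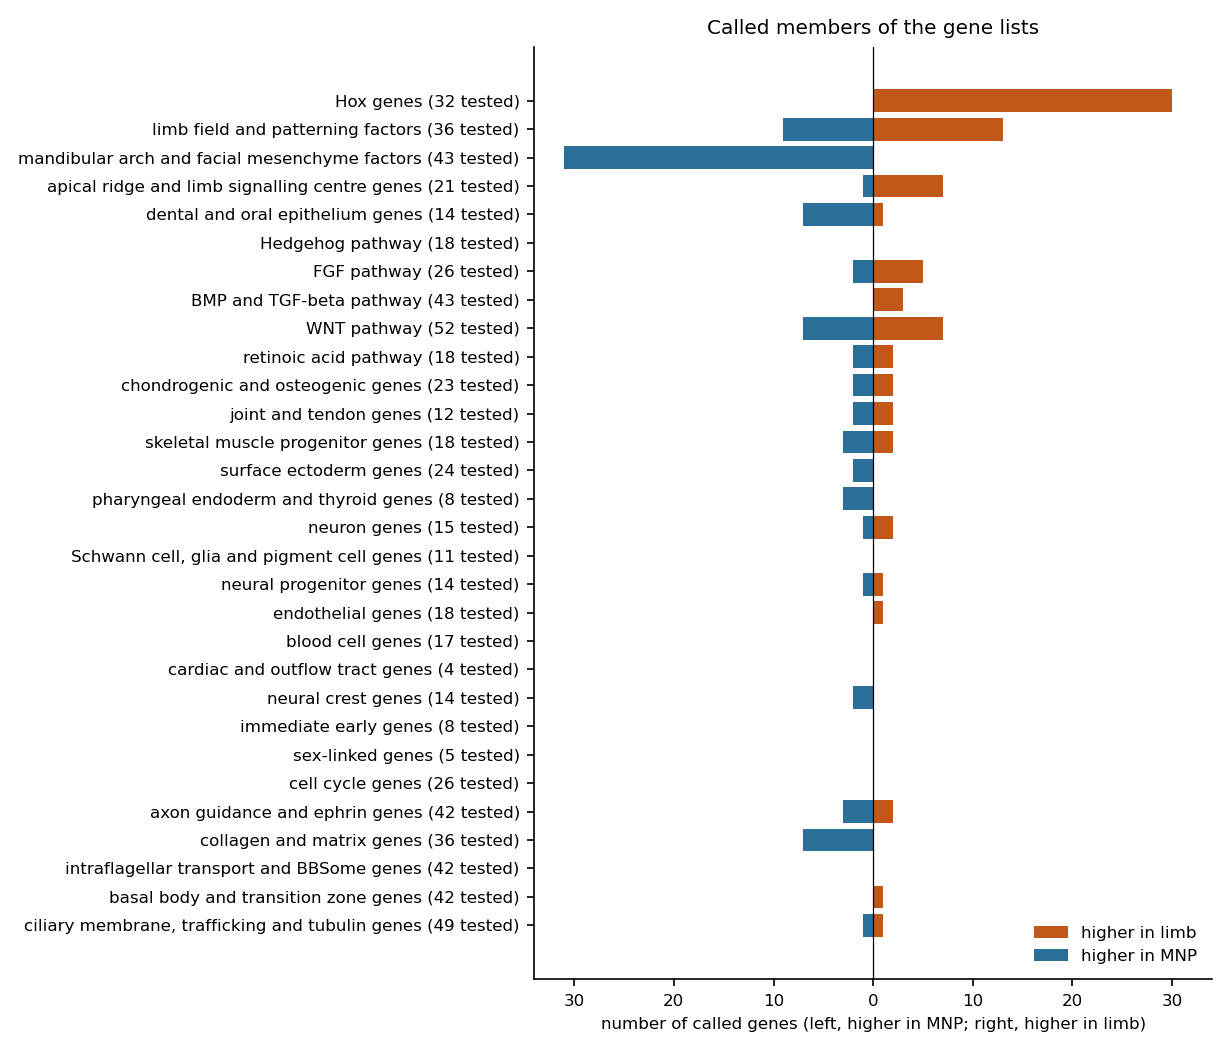
Number of called genes in each of 30 gene lists, with the number tested in parentheses (bars to the left, higher in MNP; bars to the right, higher in limb). Hox genes (30) and facial factors (31) lie on opposite sides, and the Hedgehog, cell cycle and intraflagellar transport lists have no bar.

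The share of cilium genes called was 0.0%, 2.38% and 4.08% in 3 lists, beside 2.71% of all tested genes. Of 42 tested genes of intraflagellar transport and the BBSome, 0 were called by limma, with all 35 or with the 12 libraries alone, 10 had an unadjusted p under 0.05, 3 passed the adjusted p at a smaller fold, all higher in limb, and the median difference was 0.08. The summed level was 466.7 to 570.8 FPKM in limb and 452.6 to 482.1 in MNP. The 2 with the lowest and highest differences were Cluap1 (-0.29) and Rabl5 (0.49, adjusted p = 0.0279). Of 42 basal body and transition zone genes, 11 had an unadjusted p under 0.05, and at any fold 2 passed the adjusted p in each direction. At the fold required 1 was higher in limb: Tsga14, now Cep41, a tubulin modification factor, was at 12.6 to 17.6 FPKM in limb and 6.16 to 7.15 in MNP, with no overlap (difference 1.04, SE 0.08, adjusted p = 1.1e-12). Its difference fell to 1.00 and under the fold required without limb replicate 1. Dzip1 had the largest difference of this list in the other direction (-0.86, adjusted p = 0.00139), under the fold required.

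Of 49 genes of the ciliary membrane, trafficking and tubulin, Lmo1 was higher in limb and Fez1 higher in MNP, 13 had an unadjusted p under 0.05, and at any fold 4 passed the adjusted p higher in limb and 2 higher in MNP. Lmo1, a LIM-only protein, was at 10.5 to 23.1 FPKM in limb and 1.98 to 4.94 in MNP (difference 1.96, adjusted p = 4.44e-05). Fez1, a kinesin adaptor, was at 8.5 to 16.4 FPKM in MNP and 1.47 to 5.45 in limb (difference -2.07, adjusted p = 1.17e-10). Of 33 genes that the study names in its text, 32 were tested, 1 was higher in limb (Lmo1) and 3 higher in MNP (Runx2, Fez1 and Dlx6). The 28 others included Pcm1, a centriolar satellite protein, at 30.7 ± 1.61 FPKM in limb and 33.9 ± 2.15 in MNP (difference -0.14, 95% interval -0.35 to 0.07), Tmem107, of the transition zone, at 8.3 ± 1.26 and 6.48 ± 0.824 (difference 0.31), and Ift20 at 39.7 ± 8.89 and 36.7 ± 4.05 (difference 0.09). Slc9a3r1 (0.74, adjusted p = 0.000538), Pkp3 (-0.53), Sp7 (-0.87) and Alpl (-0.79) passed the p threshold at a smaller fold.

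The called genes with the highest levels in MNP were Meg3, Rian, Barx1, Igfbp2 and Dlk1, of which 3 belong to the imprinted region at the end of chromosome 12. Dlk1, a Notch-related protein that is expressed from the paternal copy, was at 84.3 to 146 FPKM in MNP, median 132, and 11.2 to 24.9 in limb (difference -2.79, adjusted p = 1.67e-06). The non-coding Meg3 and Rian, expressed from the maternal copy, were at 103 to 358 and 120 to 270 FPKM in MNP and at 22.3 to 117 and 52.5 to 91.1 in limb (differences -1.77 and -1.34). Dlk1 and Rian did not overlap between the tissues, while Meg3 did. Dlk1 ends 77659 bases before Meg3, and Meg3 32215 bases before Rian. Igfbp2, which binds insulin-like growth factors, was at 172 ± 30.4 FPKM in MNP and 82.5 ± 12 in limb (SD, n = 6), with no overlap (difference -1.05), and its call was lost without MNP replicate 1 (-0.99). On the limb side the highest levels were those of Hoxd13, Hoxa11as, Asb4 (91.7 to 228 FPKM against 38.7 to 51.1, difference 1.45), Hoxa10 and Dusp6. Gpr50, an orphan receptor of the melatonin receptor family, was at 5.13 to 21.1 FPKM in MNP and at most 0.377 in limb (difference -3.47).

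The replicates of each tissue varied in some patterning genes. In limb, Hoxd13 was at 256, 262 and 214 FPKM in replicates 2, 3 and 6 and at 103, 52.6 and 123 in replicates 1, 4 and 5, while Meis2 was at 5.82, 5.65 and 6.03 and at 20, 13.4 and 17. In MNP, Hand1 was at 10.6, 12.1 and 12.5 in replicates 2, 3 and 6 and at 26.6, 39.2 and 30.3 in replicates 1, 4 and 5, and Tbx15 at 17.2, 7.52 and 9.78 and at 2.45, 0.644 and 1.65. Fgf8 was lower in replicates 2, 3 and 6 than in replicates 1, 4 and 5 in both tissues, at 17.7 to 26.7 against 42.6 to 57.4 FPKM in limb and at 5.07 to 6.32 against 12.9 to 18.5 in MNP. The same numbers fall on the same side in both tissues for this gene. These splits were seen in the values, do not follow the sequencing runs and were not tested. Within each replicate number limb was above MNP for Fgf8 and below it for Meis2. The numbers are not taken to pair the samples, so the overlap of the ranges of Fgf8 over all libraries remains.

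**Figure D5:**
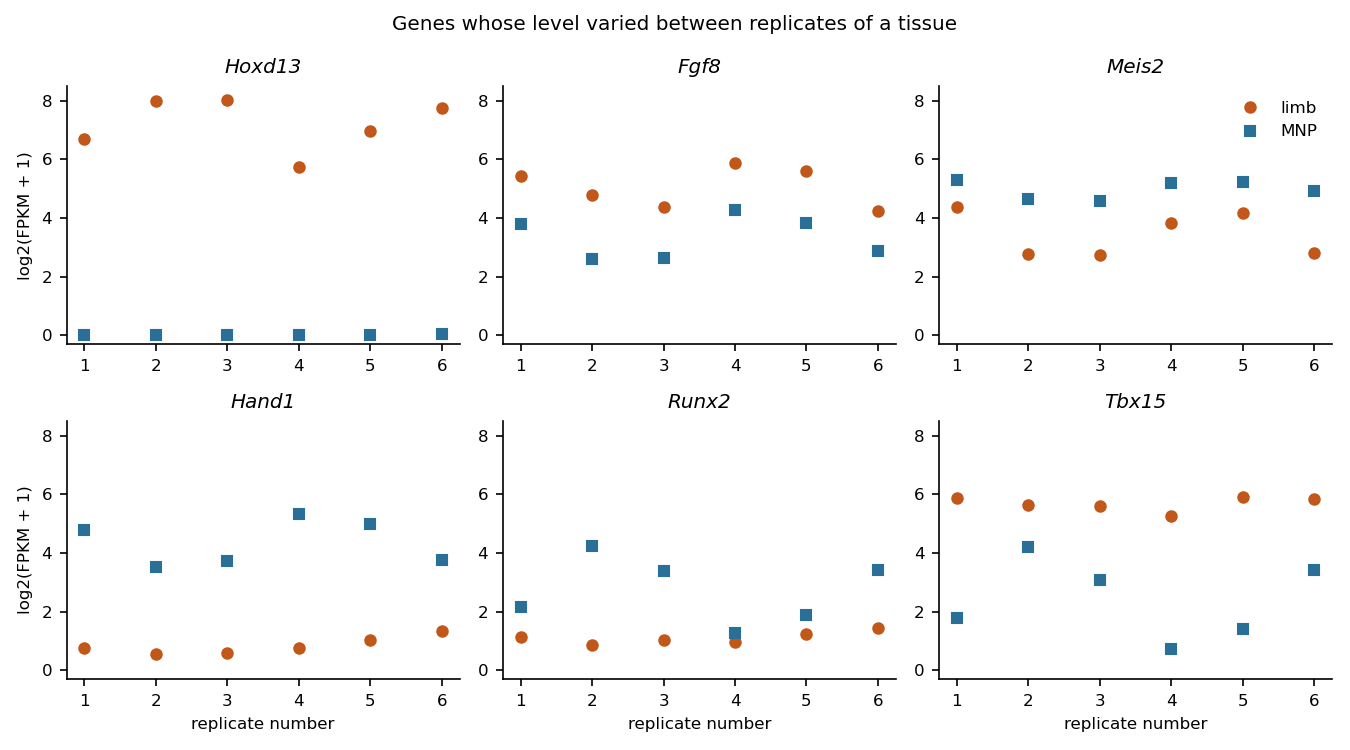
Level as log2(FPKM + 1) by replicate number in limb (circles) and MNP (squares) for 6 genes. Replicates 2, 3 and 6 have the 3 highest limb values of Hoxd13 and the 3 highest MNP values of Runx2 and Tbx15, and the 3 lowest values of Fgf8 and Meis2 in both tissues.

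The same fit gave the contrasts of limb with the other facial prominences, which share the 6 limb libraries with the contrast above, so that only the values of each are given. Higher in limb were 184 genes against FNP (1.32%) and 201 against MXP (1.44%), and lower were 402 (2.89%) and 264 (1.89%), which is 4.21% and 3.34% of the tested genes in all. Hoxd13 was at 0 in FNP and at a mean of 0.00461 FPKM in MXP. Hox genes were called higher in limb 30 times against FNP and 31 against MXP.

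The leading genes had other levels in the other prominences. Barx1 was at a mean of 110 FPKM in MXP but 4.47 in FNP, and Lhx6 at 34.2 and 1.05, with differences of limb from FNP of -1.83 and -0.53. Hand1 was at 0.446 FPKM in MXP and 0.00506 in FNP and was called in neither contrast, and Dlk1 was at 19.3 and 37.8, called in neither. Dlx5 and Dlx6 were at 14.5 and 4.25 FPKM in MXP and at 26.3 and 11.4 in FNP. Hand2, which limb and MNP had at like levels, was at 1.52 FPKM in MXP and 0.0538 in FNP, and Pitx1 at 9.21 and 9.23, both called higher in limb there. Lhx2 and Sp8 were high in FNP, at 19.5 and 8.88 FPKM, and near 1 or below in MXP (0.998 and 0.234). Foxf1, Foxd1, Nr2f1 and Alx1 were higher than in limb in all 3 prominences.

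Called genes were found on every autosome and on the X chromosome. Chromosome 6, which holds HoxA, Dlx5 and Dlx6, had 26 genes higher in limb and 11 higher in MNP among 683 tested, and chromosome 2, with HoxD and Dlx1, had 24 and 20 among 1126. On chromosome 12, with Dlk1 and Meg3, 4 were higher in limb and 18 in MNP among 519. Besides the Hox runs, 3 called neighbours in a row were found at Zic2 and Tbx5 (limb) and at Dlx3, Pou3f3, Dlx1, Dlx6, Sfrp1 and Irx3 (MNP).

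Shares of transcripts were compared within 245 genes that had several transcripts, 845 transcripts in all and a mean of at least 5 FPKM in both tissues. The libraries of the 2 tissues did not overlap, with a difference of at least 10 percentage points, for 3 transcripts of 2 genes. In Lmo2, a LIM-only factor that differed by 1.47 as a gene, the transcript uc012cak.1 held 58.0% ± 10.5 of the FPKM in limb and 22.2% ± 15.8 in MNP, and uc008ljf.2 held 24.3% ± 12.2 and 58.2% ± 12.4 (SD, n = 6). In Stra6, the retinol transporter, uc012guc.1 held 11.1% ± 5.90 in limb and 25.2% ± 8.49 in MNP. Cufflinks estimates of transcripts that share most of their exons depend on each other, and no test was made on these shares.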

How the data were processed

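RNA was extracted with Trizol and polyA-selected libraries were sequenced as paired 75-base reads. Per the file headers, the authors deposited 1 table per library with FPKM and coverage for each of 59120 transcripts, made with Cufflinks on UCSC known genes of mm10. For these tables, neither the aligner nor the strand of the libraries is stated in the sources used here, although the submitters' processing notes name Bowtie2 and DESeq2. Of the transcripts, 65 could not be read, and the other 59055 were summed to 30723 gene symbols, of which 175 lie on several chromosomes and 16 had a failed estimate in some library.

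Since the files hold FPKM, no count model was used. log2(FPKM + 1) was fitted with limma 3.58.1 in R 4.3.3 as described above. Tested on simulated data for limb against MNP over 13934 genes, the fit called 96 of 100 genes changed by 1.5 and 99 of 100 changed by 2.5 on the log2 scale and 0 unchanged genes. Both of these sizes lie above the fold required, which is 1 on the log2 scale, and smaller changes were not tested. The fold required also limits calls among unchanged genes. Data with a deviating library, such as limb replicate 4, or with an effect of the sequencing run were not tested in this way. Gene lists and members were chosen with earlier results of these data known. Named genes were the 15 leading called genes of each direction, called members and the most abundant uncalled members of each list, 33 genes that the study names in its text, all transcripts of the Hox clusters, and the 5 called genes with the highest level in each tissue. Chosen after their values were seen were the neighbours of called genes, the facial factors past the leading 8, Lmo2, Stra6, and uncalled members named for contrast (such as Shh, Gli1, Msx1, Fgf10, Bmp2, Sox10, Pecam1, Cluap1 and Dzip1). Some members that the rule names are not reported here. Alternatives changed the pseudocount, filter, scaling, samples, replicate block and threshold, or added the sequencing run as a term.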

Additional observations from a re-analysis of the deposited data

Results flagged for a closer look

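A single library lay far from the other 5 of its tissue in 21 of the 333 groups of 6 libraries examined (6.31%), where chance gives about 1 in 20. The value in parentheses is the gap to the nearest library as a share of the range on the log2 scale, which had to pass Dixon's 95% critical value.

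In 14 of the 21 the lone library was limb replicate 4. It was the lowest for Tbx4 (0.795), Ptch1 (0.785), Lmx1b (0.773), Evx1 (0.754), Spry2 (0.722), Hand2 (0.706), Smo (0.666), Tbx2 (0.659), Hoxd12 (0.646), Cyp26b1 (0.639) and Nrp2 (0.637). It was the highest for Hoxa2 (0.867), Ift20 (0.762) and Alx1 (0.749). Tbx4 was at 6.7 FPKM there against 21.5 to 28.6 in the other limb libraries, and Ptch1 at 15.1 against 28.9 to 34.4. Without this library the call of Tbx2, Tbx4, Lmx1b, Evx1, Hoxd12, Alx1 and Cyp26b1 remained.

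The other lone libraries were those of Fgf10 in MNP replicate 2 (0.793, highest), Fez1 in limb replicate 1 (0.768, highest), Scx in MNP replicate 6 (0.729, highest), Plagl1 in limb replicate 6 (0.65, highest), Col2a1 in MNP replicate 3 (0.638, lowest), Spry4 in MNP replicate 2 (0.637, highest) and Hoxa9 in limb replicate 1 (0.635, lowest).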

How the results depend on the processing

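The counts of genes higher in limb (170) and in MNP (208) rose to 267 and 396 with a pseudocount of 0.1, and to 499 and 596 with no fold required. The count higher in MNP fell to 104 with replicates 4 to 6 alone and to 102 when tested against a fold of 1.5. Each left-out library gave 160 to 184 genes higher in limb and 180 to 230 higher in MNP. All other alternatives stayed within 1.5 times of both counts, and the cause of these changes was not tested. With the sequencing run as a term the counts were 175 and 196. In that fit 6 named genes lost their call (Col6a2, Hoxc12, Lin28b, Sim2, Spry2 and Tbx1) and 2 gained one (Hoxb6 and Sox9). With the replicate number as a block the counts were 172 and 210, and no named gene changed its call. The numbers are not taken to pair the samples, since the correlation of same-numbered deviations ranged from 0.018 to 0.549. Rescaling over transcripts of at least 200 bases moved the median of all genes by -0.057 and gave 198 and 279.

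Of the 205 named genes that were tested, 157 were called and 88 of these kept their call in the 25 alternatives that gave values per gene, of which 2 (without vB, and without the libraries of replicate 1) were chosen after seeing the data. No named gene was called in opposite directions, and 27 sign changes concerned genes called under neither setting. Uncalled genes that an alternative called were Alpl, Bmp2, Col3a1, Hoxb6, Sox10, Sox9 and Sp7. FPKM hold no read counts, so the depth behind low values is not known.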
